A study of Mus musculus with 6 samples.

Results

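The translation initiation and elongation factor genes comprised 87 of the 21877 gene symbols in the expression table of a mouse embryo study. They were taken by symbol: every gene whose name begins with Eif and a digit from 1 to 6, or with Eef and 1 or 2, pseudogenes marked -ps being left out. The rule itself reads symbols only and no measured value. The set therefore holds the factors themselves and also the kinases, binding proteins and methyltransferases named after them. Of the 87 genes, 62 reached at least 1 RPKM (a read count divided by exon length and library depth) in at least 3 libraries and were tested. The other 25 were too low to test, and 17 of these were listed at 0 in every library.

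RNA sequencing covered 3 libraries of wild-type mouse embryos (WT 1, 2 and 3) and 3 libraries of embryos carrying a knock-in of Rnf111 S254D (KI 1, 2 and 3), all labelled embryonic day 7.5 and given no other treatment or allele in the labels. Rnf111, or Arkadia, is a ubiquitin ligase of the Nodal and TGF-beta pathway, and the comparison asks how the mutant allele affects transcript levels. The labels give the tissue as embryo and say nothing of zygosity, sex, strain, litter or pooling, so the p-values below measure only the spread between these libraries, which may be partly technical. In such bulk samples, fewer cells of a type and less RNA per cell cannot be told apart.

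Protein synthesis begins when eIF2, carrying GTP and the initiator tRNA, joins the small ribosomal subunit together with eIF1, eIF1A, eIF3 and eIF5. The eIF4 group binds the mRNA cap, unwinds the leader and brings the loaded subunit to the mRNA, which is then scanned to the start codon. During elongation eEF1A delivers aminoacyl-tRNA, the eEF1B complex recharges eEF1A with GTP, eEF2 moves the ribosome along, and eIF5A relieves stalling. Cells adjust the whole process chiefly through phosphorylation of eIF2 alpha and of the eIF4E-binding proteins, which an RNA measurement does not see.

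Several factors are encoded by pairs of similar genes, and the results below depend on telling the copies apart. The gamma subunit of eIF2 has a copy on the X chromosome and another on the Y chromosome. Their coding sequences, from GENCODE transcripts, are 86.3% identical over 1419 aligned positions. The first 120 coding bases follow, 5′ to 3′, with capitals where the copies differ, which is at 19 positions.

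Eif2s3x: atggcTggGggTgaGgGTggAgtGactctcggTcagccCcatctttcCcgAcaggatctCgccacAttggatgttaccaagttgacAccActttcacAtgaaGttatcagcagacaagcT

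Eif2s3y: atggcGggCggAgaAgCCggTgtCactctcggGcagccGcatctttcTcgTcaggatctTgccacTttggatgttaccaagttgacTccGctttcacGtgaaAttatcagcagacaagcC

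No stretch of 50 bases of the Eif2s3y transcripts occurs in another annotated transcript, so its reads belong to no other listed gene. For Eif2s3x, 34.6% of such stretches recur in the annotated gene Gm2223, and part of its count is uncertain for that reason. The eIF4A helicases Eif4a1 and Eif4a2 are 77.7% identical in coding sequence. The 60 bases around the codons of the DEAD box, the motif that names this helicase family, differ at 8 positions, again in capitals.

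Eif4a1: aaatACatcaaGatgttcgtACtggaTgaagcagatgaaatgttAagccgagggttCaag

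Eif4a2: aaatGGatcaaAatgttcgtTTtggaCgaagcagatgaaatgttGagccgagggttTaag

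The eIF5A genes are 72.7% identical. The next 60 bases have the codon of lysine 50 at their centre, the residue that is converted to hypusine and without which eIF5A is inactive. They differ at 9 positions, in capitals, none of them within that codon (AAG, here in lower case).

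Eif5a: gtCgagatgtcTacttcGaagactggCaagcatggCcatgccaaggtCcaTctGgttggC

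Eif5a2: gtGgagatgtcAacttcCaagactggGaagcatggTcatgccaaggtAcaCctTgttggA

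The libraries held between about 9763000 and 13559000 reads. WT 3 and KI 2 stood apart from the other 4 libraries: WT 3 lay alone on the first principal component, with 61.5% of the variance, and KI 2 on the second, with 25.1%. In WT 3 fewer genes reached 1 RPKM, 8912 against 9738 to 10148 in the other libraries. Several of the differences that either library moved, though not all, are given below with and without it. In KI 2 the 6 markers of visceral and yolk sac endoderm summed to 9.15 RPKM, against 428 and 433 in WT 1 and WT 2, 1233 in WT 3, and 537 and 646 in the other KI libraries. Its 5 heart markers summed to 101, against 334 to 414 elsewhere. The 5 erythroid markers summed to 1778 to 2626 in WT and 2050 to 2439 in KI, and the 5 neural markers to 16.5 to 19.8 in WT and 17.5 to 34.7 in KI, with the highest sum in KI 2. All 5 trophoblast markers stayed under 1 RPKM, Prl3d1 and Tpbpa at 0, and of the 6 decidual markers the 4 granzyme genes were at 0. The decidual sums were 62.2, 61.1 and 100 in WT and 63.4, 21.4 and 64.8 in KI, nearly all from Cryab, a small heat shock protein gene that muscle also expresses. Of 11 markers of the gastrulating epiblast and primitive streak, 8 were under 1 RPKM in every library, among them Pou5f1, Nanog, Eomes and Mesp1, while T (6.24 to 12.5 RPKM) and Mixl1 (2.72 to 17.0) were detected. The cardiac gene Myl7 (58.7 to 201) and the somite gene Meox1 (14.1 to 33.7) were well expressed, genes of the heart tube and somites that form after gastrulation begins. Others of these lists were lower, such as Nkx2-5 (0.298 to 1.70) and Tcf15 (0.523 to 1.13). Myf5 was at 7.86, 8.37 and 14.3 in WT and at 2.80, 2.71 and 5.12 in KI. The somite and posterior body markers summed to 56.6, 58.5 and 34.5 in WT and to 44.2, 26.3 and 47.1 in KI. Markers of the labelled stage were thus mostly at or near 0. Rnf111 itself was at 2.13 ± 0.40 RPKM in WT and 2.02 ± 0.54 in KI (SD, n = 3 each), a level that does not show a codon change. The part of these differences in the results below was not tested.

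Translation factor transcripts were abundant and made up a nearly constant share of each library. They took 2.27%, 2.26% and 2.18% of the reads in WT 1, 2 and 3, and the KI libraries gave 2.28%, 2.36% and 2.21%. Both genotypes thus lay in the same narrow range. The median tested member had a mean of 51.4 RPKM, against 6.31 over all 10104 tested genes, and 18 members had a mean of 100 RPKM or more. RPKM here divides by the merged exons of a gene, so that a gene with long alternative exons reads lower than its main transcript would. Read at this higher level, the members varied less. Their median coefficient of variation over the 6 libraries was 14.8%, against 22.3% over all tested genes, and in 30 of 62 the highest library was less than 1.5 times the lowest.

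**Figure D1:**
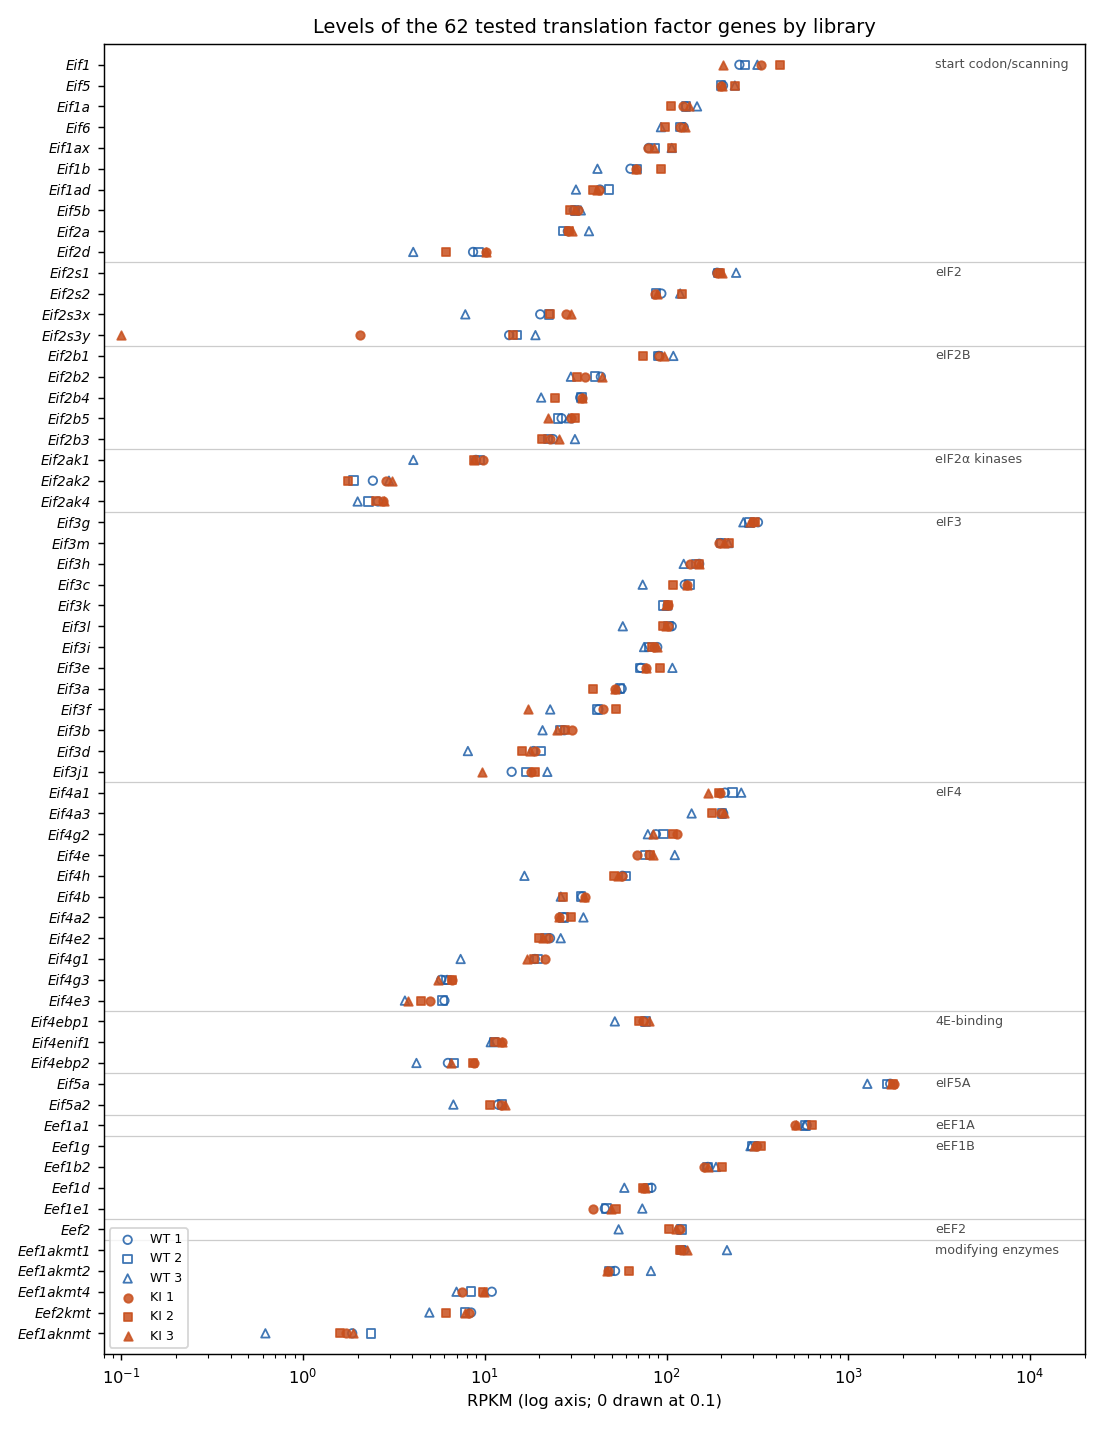
RPKM of the 62 tested translation factor genes (log axis) in each library, grouped by role and ordered by mean level; open blue symbols are WT, filled orange symbols KI, circles, squares and triangles replicates 1, 2 and 3, and a value of 0 is drawn at 0.1. Eif5a has the highest level, from 1273 to 1791 RPKM, and the widest spread is that of Eif2s3y, from 0 to 19.0.

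No translation factor gene differed between KI and WT past the threshold. With limma on log2(RPKM + 1) and Benjamini-Hochberg adjustment over all tested genes, 0 of 62 members reached an adjusted p under 0.05, as did 0.0% of all tested genes (0 of 10104, smallest adjusted p 0.999). Run on recovered reads, limma-voom also called 0 genes. It put 92 of 9928 genes (0.927%) and 1 of 61 members under an unadjusted p of 0.05. At an unadjusted p under 0.05 there was 1 member of 62, Eif2s3y, lower in KI, where 1.2% of all tested genes lay under that limit (0.624% higher and 0.574% lower in KI). The KI and WT values did not overlap in 4 members (6.45%), namely Eif2s3x and Eif5a, higher in KI, and Eif3a and Eif4a1, lower in KI, against 6.54% of all tested genes (3.8% higher and 2.74% lower). The members' share was that of the background in the values as deposited. With each library centred on its median 5 members (8.06%) were separated, against 7.51% of all tested genes. Under quantile normalization 6 were (9.68%), against 7.71%. Eif2s3x and Eif3a were separated under each scaling. The median KI minus WT difference was 0.04 on the log2 scale over the members and 0.05 over all tested genes, and that of the members was -0.04 when each library was centred on its median. Of the members 39 had a positive and 23 a negative difference, that is 62.9% positive against 58.8% of all tested genes.

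The error allowed some bounds. The median SE of a member's log2 difference was 0.185, against 0.221 over all tested genes, and the 95% intervals had a median reach of 0.43 either way. In 34 of 62 members the 95% interval lay wholly within a 1.5-fold change of RPKM + 1 either way. In 54 (87.1%, against 81.8% of all tested genes) it lay within a 2-fold change of RPKM + 1. For genes of low level the bounds are wider in RPKM itself. These intervals are not adjusted for the number of genes, and the remaining members could differ by more.

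**Figure D2:**
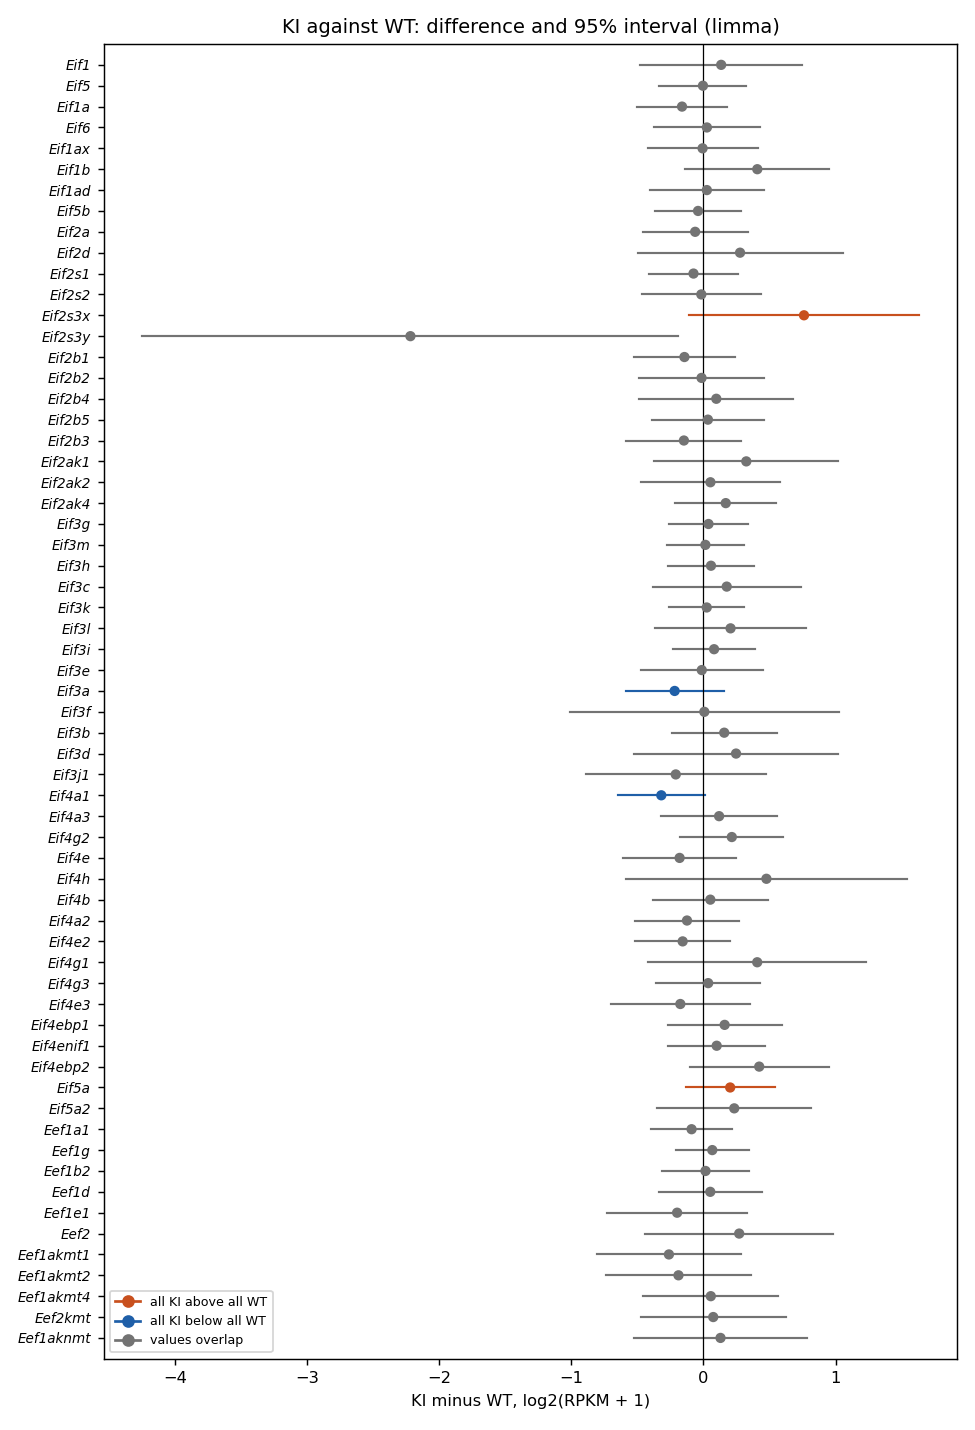
KI minus WT difference on the log2(RPKM + 1) scale for the 62 tested members, grouped by role; points are limma estimates and lines unadjusted 95% intervals, with n = 3 per genotype. Orange marks Eif2s3x and Eif5a, blue Eif3a and Eif4a1, the 4 genes whose KI and WT values do not overlap, and Eif2s3y is the only member whose interval leaves out 0.

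The largest differences within the set belonged to the sex-linked copies of eIF2 gamma, the subunit that binds GTP and the initiator tRNA. Eif2s3y was at 13.6, 15.0 and 19.0 RPKM in WT 1, 2 and 3 and at 2.05, 14.2 and 0 in KI 1, 2 and 3. KI 2 lay in the WT range, KI 1 had a small fraction of it, and KI 3 had no read, where 3 reads would have given 0.0626 RPKM. The means were 15.9 ± 2.79 in WT and 5.43 ± 7.69 in KI (SD, n = 3 each), a log2 difference of -2.22 (SE 0.86, limma unadjusted p = 0.036, adjusted p = 0.999) that became -1.30 without KI 3 and -3.26 without KI 2. With a library at 0 the fitted size also depends on the pseudocount. Eif2s3x was at 20.2, 22.6 and 7.82 in WT 1, 2 and 3 and at 28.1, 22.9 and 29.7 in KI 1, 2 and 3. Every KI value lay above every WT value, though KI 2 exceeded WT 2 by little, and the highest were the libraries with least Eif2s3y. The log2 difference was 0.76 (SE 0.37, limma adjusted p = 0.999), 0.31 without WT 3 and 0.42 without WT 3 and KI 2, again short of the threshold (limma adjusted p = 0.956 and 0.136).

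Summed over both copies, eIF2 gamma was at 33.8, 37.6 and 26.8 RPKM in WT 1, 2 and 3 and at 30.2, 37.2 and 29.7 in KI 1, 2 and 3. The sums overlapped, with means of 32.7 ± 5.46 in WT and 32.4 ± 4.17 in KI (SD, n = 3 each). The Y copy gave 40.3%, 39.9% and 70.8% of the sum in WT 1, 2 and 3, and the KI libraries gave 6.79%, 38.3% and 0%. Other Y-linked genes followed the same pattern: Ddx3y was at 17.1, 17.1 and 24.1 RPKM in WT and at 3.24, 24.7 and 0 in KI, and Kdm5d and Uty were also at 0 in KI 3 and lowest of the rest in KI 1. Y-linked expression was thus low or absent in KI 1 and KI 3 and in no WT library, and genotype and Y-linked expression moved together in part. With 3 libraries a group their parts in the Eif2s3x and Eif2s3y differences cannot be told apart. A further fit took the summed log2(RPKM + 1) of Ddx3y, Kdm5d and Uty as a Y-linked covariate. With it the differences were 0.46 for Eif2s3x and -0.23 for Eif2s3y (limma unadjusted p = 0.404 and 0.309). Eif2s3y is itself Y-linked with the same pattern, so this covariate would shrink its difference in any case.

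**Figure D3:**
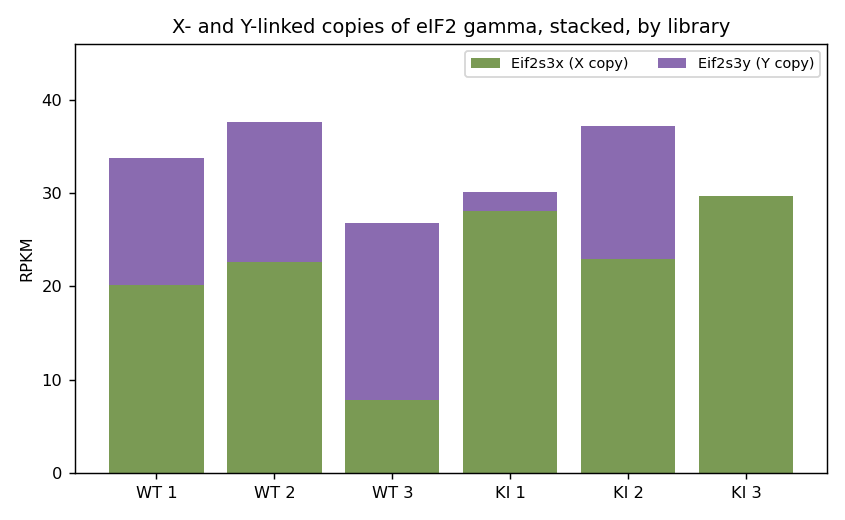
RPKM of the X copy (green) and the Y copy (purple) of the eIF2 gamma gene, stacked, in each library. The sums run from 26.8 to 37.6 in WT and from 29.7 to 37.2 in KI, while the Y copy is absent in KI 3, small in KI 1 and the larger part in WT 3.

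The remaining eIF2 subunits were higher than gamma and overlapped between genotypes. Eif2s1, the alpha subunit whose phosphorylation slows initiation, was at 190, 192 and 242 RPKM in WT 1, 2 and 3 and at 189, 196 and 202 in KI 1, 2 and 3. WT 3 stood above the other 5, which lay within a few percent of each other. Eif2s2, the beta subunit, was at 93.6, 87.5 and 119 in WT and at 86.8, 122 and 88.9 in KI, so the highest library of each genotype was the one that stood apart from the rest. The eIF2B complex exchanges GDP for GTP on eIF2. None of its 5 subunit genes passed, with 2 positive and 3 negative differences between -0.15 and 0.10 on the log2 scale. Eif2b1, the alpha subunit, was at 90.6, 89.6 and 109 in WT and at 91.1, 73.8 and 97.2 in KI. Eif2b2, the beta subunit, was at 43.5, 40.4 and 29.8 in WT and at 35.8, 32.1 and 44.2 in KI. Eif2b4, the delta subunit, was at 33.5, 34.1 and 20.4 in WT and at 34.5, 24.3 and 34.4 in KI. The catalytic epsilon subunit gene Eif2b5 was at 22.2 to 31.5 over the 6 libraries and Eif2b3, for gamma, at 20.6 to 31.3. The groups overlapped in each.

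The kinases that phosphorylate eIF2 alpha were low. Eif2ak1, the heme-regulated kinase of red cell precursors, was at 8.94, 9.43 and 4.05 RPKM in WT and at 9.78, 8.76 and 8.75 in KI, and WT 3 alone was low. Eif2ak2, the kinase PKR that senses double-stranded RNA, was at 2.42, 1.90 and 2.97 in WT and at 2.87, 1.76 and 3.10 in KI. Eif2ak4, the amino acid sensor GCN2, was at 2.59, 2.30 and 2.00 in WT and at 2.75, 2.53 and 2.80 in KI. Both overlapped between genotypes. Eif2ak3, the endoplasmic reticulum kinase PERK, did not exceed 0.943 and was not tested.

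The level of a kinase transcript does not give its activity, and the target genes of the stress response these kinases start were read for that reason. Of 15 listed targets 11 were tested. In the fit of all 6 libraries none passed, and none lay under an unadjusted p of 0.05. There 9 differences were positive and 2 negative, where 58.8% of all tested genes were positive. Atf4, whose protein is made when eIF2 alpha is phosphorylated, was at 29.9, 30.9 and 16.6 RPKM in WT and at 26.8, 48.7 and 23.6 in KI. Ddit3, a transcription factor downstream of it, was at 2.54, 3.55 and 1.64 in WT and at 2.13, 7.29 and 1.37 in KI. KI 2 thus had the highest value of both genes, as it had for 6 of the 11 tested targets, and WT 3 had the lowest value of 7. Without WT 3 and KI 2 the log2 difference of Atf4 went from 0.32 to -0.26 and that of Ddit3 from 0.18 to -0.56. Neither passed (limma unadjusted p = 0.0192 and 0.0176, adjusted p = 0.324 and 0.323). Phgdh, Shmt2, Sesn2 and Slc3a2 also turned negative and Psat1 stayed so. Vldlr turned positive, and Atf3, Asns and Ppp1r15a stayed positive. Ppp1r15a, the phosphatase subunit that removes the eIF2 alpha phosphate, was at 11.6, 11.1 and 3.14 in WT and at 14.1, 16.3 and 12.1 in KI. The groups did not overlap, as in 6.54% of all tested genes, with a log2 difference of 0.81 (limma unadjusted p = 0.0957) and its lowest value by far in WT 3. The difference was 0.29 without WT 3 and 0.19 without WT 3 and KI 2. The most abundant targets were the serine synthesis genes Phgdh (17.6 RPKM in WT 3, 88.9 to 120 elsewhere) and Psat1 (83.4 to 92.1) and the asparagine synthetase gene Asns (57.0 to 67.5).

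Among the factors that select the start codon, Eif1 ranged widely within the KI group, while its copy Eif1b varied about equally in both genotypes. Eif1, which keeps the scanning ribosome open until a start codon is found, was at 252, 270 and 316 RPKM in WT 1, 2 and 3. In KI 1, 2 and 3 it was at 331, 421 and 204, so the KI values lay on both sides of the WT values. Eif1b was at 63.3, 69.0 and 41.7 in WT and at 68.2, 93.5 and 67.5 in KI, a log2 difference of 0.41 (SE 0.23, limma adjusted p = 0.999) with overlapping groups. It was 0.19 without WT 3 and 0.04 without WT 3 and KI 2. For Eif1, 19.2% of 50-base stretches recur in other annotated transcripts, so its level is less certain than most.

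Eif5, which triggers GTP hydrolysis on eIF2, was at 204, 200 and 238 RPKM in WT and at 200, 238 and 203 in KI. Its means were 214 ± 20.7 in WT and 213 ± 21.3 in KI (SD, n = 3 each). The eIF1A protein has an autosomal and an X-linked gene. Eif1a was at 128, 128 and 147 in WT and at 123, 106 and 133 in KI, and Eif1ax at 79.8, 86.2 and 107 in WT and at 79.1, 107 and 85.8 in KI. The groups overlapped in both genes, the X-linked Eif1ax included.

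The other 5 start factors were level or low. Eif6, which keeps the large subunit from joining too early, was at 93.2 to 126 RPKM over the 6 libraries, Eif5b, the GTPase of subunit joining, at 29.3 to 33.8, and Eif2a, an alternative carrier of the initiator tRNA, at 26.9 to 37.4. Eif1ad was at 31.8 to 48.2 and Eif2d, which acts in ribosome recycling and non-canonical initiation, at 4.04 to 10.2. A further 16 genes named Eif1ad followed by a number were all listed at 0 in every library.

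The eIF3 complex is the scaffold that ties the small subunit to the eIF4 group. It had 13 tested subunit genes, none past the threshold, with 10 positive and 3 negative differences and a median of 0.04 on the log2 scale. The transcripts were not present in equal amounts. Per length, Eif3g, an RNA-binding subunit, was highest at 318, 286 and 265 RPKM in WT and at 298, 305 and 287 in KI. Eif3m followed at 198, 199 and 219 in WT and at 195, 220 and 207 in KI. Eif3h, its partner in the same module, was at 151, 145 and 124 in WT and at 135, 151 and 150 in KI. In all 3 the genotypes overlapped. Eif3c (73.9 to 133 over the 6 libraries), Eif3l (57.5 to 107), Eif3i (75.2 to 89.2) and Eif3e (71.8 to 108) lay in the middle. At the other end stood Eif3b, Eif3d and Eif3j1, with means between 15.5 and 27.6 in either genotype. Eif3k, a small peripheral subunit, was the steadiest of all members, at 101, 96.0 and 101 in WT and 102, 102 and 99.6 in KI.

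A few subunits left this even picture in single libraries. Eif3f, a core subunit, was at 42.2, 41.7 and 22.9 RPKM in WT and at 44.9, 52.4 and 17.3 in KI. It was low in KI 3 and WT 3 and high in KI 2, so that its interval, -1.01 to 1.03 on the log2 scale, was among the widest. Eif3j1, which helps eIF3 bind and leave the subunit, was likewise lowest in KI 3, at 9.63 against 14.1 to 22.1 in the other 5 libraries. Its near copy Eif3j2 stayed at 0.583 to 1.89 RPKM and was not tested. Of the 50-base stretches of Eif3j2, 91.8% recur in other transcripts, nearly all in Eif3j1, where 36.9% are shared, so reads may be split between them.

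Eif3a, the largest subunit, was at 56.7, 55.5 and 53.7 RPKM in WT and at 51.7, 39.5 and 51.9 in KI. The KI values lay below the WT values, KI 1 and KI 3 by little and KI 2 by more. The log2 difference was -0.22 (SE 0.16, limma unadjusted p = 0.208, adjusted p = 0.999), and -0.09 without KI 2.

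**Figure D4:**
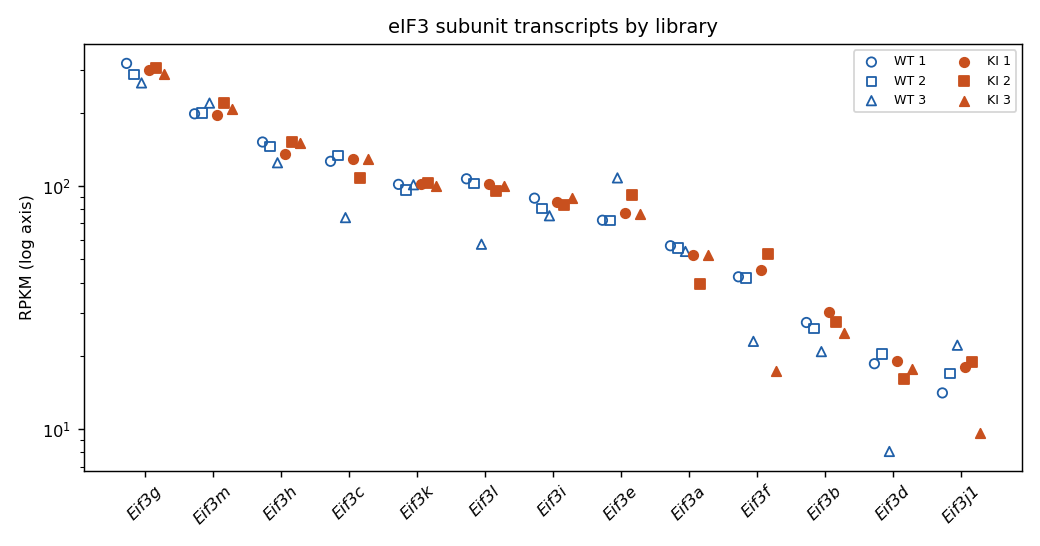
RPKM (log axis) of the 13 tested eIF3 subunit genes in each library, ordered by mean level; open blue symbols are WT, filled orange symbols KI, and circles, squares and triangles replicates 1, 2 and 3. Levels run from 318 for Eif3g to 8.08 for Eif3d, with Eif3k nearly flat and Eif3f low in WT 3 and KI 3.

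Of the eIF4 genes, Eif4a1 was the only one whose KI and WT values did not overlap. Eif4a1, the main helicase of cap-dependent initiation, was at 210, 231 and 258 RPKM in WT 1, 2 and 3 and at 196, 194 and 169 in KI 1, 2 and 3. The means were 233 ± 24.0 in WT and 186 ± 15.4 in KI (SD, n = 3 each), a KI to WT ratio of 0.80. The log2 difference was -0.32 (SE 0.14, 95% interval -0.65 to 0.01, limma unadjusted p = 0.0545, adjusted p = 0.999), and -0.25 without WT 3. When each library was centred on its median, the groups overlapped, while under quantile normalization they stayed separated. Of the 50-base stretches of Eif4a1, 28.4% recur in other annotated transcripts, chiefly the pseudogene Eif4a-ps4, so its count is uncertain to that extent.

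The other helicase genes overlapped between genotypes. Eif4a2 was at 27.3, 27.1 and 34.9 RPKM in WT and at 25.7, 29.9 and 25.7 in KI, between 10.5% and 13.4% of the sum of both copies. Eif4a3, the helicase of the exon junction complex rather than of initiation, was at 205, 202 and 137 in WT and at 200, 177 and 207 in KI. WT 3 was the highest library for Eif4a2 and the lowest for Eif4a3. Their relatives Eif4a3l1 and Eif4a3l2 did not exceed 0.141 and 0.551 and were not tested.

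The cap-binding protein gene Eif4e was at 80.5, 76.5 and 111 RPKM in WT and at 69.1, 80.7 and 83.8 in KI. Eif4g1, the scaffold that joins the cap, the helicase and eIF3, was at 18.9, 19.5 and 7.36 in WT and at 21.4, 18.6 and 17.1 in KI. Eif4g2, a scaffold relative that lacks the eIF4E-binding site, was at 87.5, 96.3 and 78.9 in WT and at 114, 108 and 84.4 in KI. Per length the scaffold relative was thus several times more abundant than Eif4g1 in every library. Eif4h, a helicase cofactor, was at 57.2, 59.9 and 16.5 in WT and at 56.7, 51.5 and 54.2 in KI, which left WT 3 far below the rest. Eif4e2, a cap-binding relative that represses translation, was at 19.8 to 26.2 over the 6 libraries, and the scaffold gene Eif4g3 at 5.54 to 6.59. Eif4e3, another cap-binding relative, was at 6.0, 5.87 and 3.64 in WT and at 4.98, 4.44 and 3.76 in KI. Its groups overlapped as deposited and separated, lower in KI, when libraries were centred on their median. The oocyte form Eif4e1b was listed at 0 in every library.

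The eIF4E-binding proteins hold eIF4E away from eIF4G until the kinase mTOR phosphorylates them. Eif4ebp1, the most abundant, was at 75.0, 76.7 and 52.0 RPKM in WT and at 74.0, 70.9 and 79.9 in KI. Eif4ebp2 was at 6.27, 6.75 and 4.21 in WT and at 8.74, 8.64 and 6.51 in KI, with a log2 difference of 0.42 (SE 0.22, limma unadjusted p = 0.1) that was 0.25 without WT 3 and 0.19 without WT 3 and KI 2. KI 3 lay between WT 1 and WT 2, and the groups were separated once each library was centred on its median. Eif4ebp3 gave 4, 4 and 1 reads in KI 1, 2 and 3 and none in WT, counts at or near the floor of 3 reads. Most of its exons (67.3%) also belong to an overlapping annotated gene on the same strand, AC115631.1. Eif4enif1, which carries eIF4E into the nucleus, was at 11.6, 11.2 and 10.8 in WT and at 12.5, 11.3 and 12.5 in KI. Among 13 listed genes of the mTOR complex and eIF4 regulation, all tested, none passed and none lay under an unadjusted p of 0.05. In this fit 10 differences were positive and 3 negative, and WT 3 had the lowest value in 10 genes. Without WT 3 and KI 2 those of Mtor, Mlst8, Akt1s1, Tsc2, Rps6kb2, Mknk1 and Larp1 turned negative. That of Pdcd4 turned positive (0.26, limma unadjusted p = 0.0294, adjusted p = 0.367), and the rest kept their sign. The most abundant were Pdcd4, an inhibitor of eIF4A (37.3 to 104 RPKM, highest in WT 3), and Rheb, the GTPase that activates mTOR (37.5 to 69.5, highest in WT 3).

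Eif5a was the most abundant translation factor transcript and the tenth most abundant of all symbols. It was at 1701, 1648 and 1273 RPKM in WT 1, 2 and 3 and at 1791, 1763 and 1721 in KI 1, 2 and 3, between 19.8% and 25.9% of the summed RPKM of the set in each library. The KI values lay above the WT values, closely for WT 1 and WT 2 and widely for WT 3. The log2 difference was 0.20 (SE 0.14, limma unadjusted p = 0.201, adjusted p = 0.999), and 0.07 without WT 3. Under quantile normalization the groups overlapped, while with each library centred on its median they stayed separated. Its copy Eif5a2, with the same codon for the hypusine residue, was at 11.8, 12.5 and 6.72 in WT and at 12.3, 10.7 and 12.9 in KI, under 1% of the sum of both. The enzymes that make hypusine, Dhps (11.9 to 20.6) and Dohh (1.77 to 6.05), were both tested, did not pass, and were also lowest in WT 3.

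None of the elongation factors proper passed the test. Eef1a1, which delivers aminoacyl-tRNA, was at 591, 580 and 578 RPKM in WT and at 509, 630 and 513 in KI, a log2 difference of -0.09 (SE 0.13). KI 2 was above and KI 1 and KI 3 below the WT values, and without WT 3 and KI 2 the difference was -0.20 (limma adjusted p = 0.22). Of its 50-base stretches 39.4% recur in other annotated transcripts. Its copy Eef1a2, the form of muscle and neurons, was at 0.108 in WT 1 from 3 reads and at 0 in the other 5 libraries.

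Within the eEF1B exchange complex the gamma subunit Eef1g was highest, at 315, 297 and 290 RPKM in WT and 311, 330 and 304 in KI, with 44.2% of its 50-base stretches shared, chiefly with Gm4366. The catalytic subunit Eef1b2 was at 169, 168 and 187 in WT and at 161, 201 and 169 in KI, and the second catalytic subunit Eef1d at 82.6, 78.9 and 58.6 in WT and at 75.4, 74.4 and 75.9 in KI. The groups overlapped in each. Eef1e1, a small protein of the tRNA synthetase complex that carries a factor-like name, was at 45.8, 46.6 and 73.6 in WT and at 39.5, 52.7 and 49.5 in KI.

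Eef2, the translocase, was at 117, 121 and 54.5 RPKM in WT and at 118, 103 and 113 in KI. WT 3 alone was low, at 0.476 times the mean of the other 5 libraries, and the log2 difference of 0.27 (SE 0.30) was -0.10 without it. Eef2k, the kinase that inactivates eEF2, was at 0.358 to 1.09 RPKM and was not tested. Of the methyltransferases that modify the elongation factors, Eef1akmt1 was at 125, 120 and 215 in WT and at 120, 119 and 130 in KI, and Eef1akmt2 at 52.1, 48.7 and 82.1 in WT and at 47.8, 62.3 and 46.8 in KI. Both stood highest in WT 3. Eef1akmt4 was at 10.9, 8.41 and 6.99 in WT and at 7.48, 9.84 and 9.94 in KI, and Eef2kmt (4.96 to 8.41) and Eef1aknmt (0.621 to 2.36) were low, and Eef1akmt3 did not exceed 0.298.

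Many elongation factor mRNAs belong to the TOP class, whose leaders start with a run of pyrimidines and whose translation depends on mTOR. The 9 members known as classical TOP mRNAs (Eef1a1, Eef1b2, Eef1d, Eef1g, Eef2, Eif3e, Eif3f, Eif3h and Eif4b) summed to 1574, 1538 and 1450 RPKM in WT and to 1467, 1660 and 1455 in KI. None passed, 7 differences were positive and 2 negative, and their median on the log2 scale was 0.05, as over all tested genes. Eif3e was at 72.1, 71.8 and 108 in WT and at 77.0, 91.9 and 76.7 in KI, and Eif4b, a helicase cofactor, at 34.3, 33.8 and 26.2 in WT and at 35.8, 26.9 and 35.3 in KI.

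Genes for the later steps of translation were read for comparison. Of 9 termination and recycling genes 8 were tested, none passed, and 1 was separated, where 6.54% of all tested genes were (2.74% lower in KI). This was Mcts2, at 35.6, 31.8 and 40.8 RPKM in WT and 28.0, 28.8 and 28.0 in KI (log2 difference -0.34, limma unadjusted p = 0.0613). Mcts2 belongs to a family of recycling and reinitiation factors. Its relative Mcts1 had a difference of the other sign (0.26). Mcts1 was at 27.4, 32.4 and 28.0 in WT and at 32.2, 44.7 and 30.0 in KI, with overlapping groups. The release factor gene Etf1 was at 97.4 to 109, the recycling factor genes Abce1 at 74.8 to 97.0 and Denr at 60.8 to 93.2. None of 6 genes of poly(A)-binding proteins and their partners passed, with 1 positive and 5 negative differences, where 58.8% of all tested genes were positive. Among them Paip1 was at 276 in WT 3 against 91.1 to 114 elsewhere, Paip2 at 182 to 255 and the poly(A)-binding protein gene Pabpc1 at 45.4 to 66.8. The log2 difference of Paip1 was -0.27, and 0.25 without WT 3 (limma unadjusted p = 0.0322, adjusted p = 0.956). Of 10 mitochondrial translation factor genes, all tested, none passed, and 4 differences were positive and 6 negative. The mitochondrial elongation factor gene Tufm was at 21.7, 20.6 and 10.5 in WT and at 23.3, 20.3 and 21.4 in KI.

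WT 3 was the extreme library for most members. It held the lowest value of 33 members (53.2%) and the highest of 17 (27.4%), against 51.9% and 19.4% of all tested genes. Against the mean of the other 5 libraries, the lowest ratios were those of Eif4h (0.296), Eif2s3x (0.316), Eef1aknmt (0.329), Eif4g1 (0.386), Eif3d (0.442), Eif2ak1 (0.443), Eif2d (0.456) and Eef2 (0.476). The highest were those of Eif2s3y (2.12), Eef1akmt1 (1.75), Eef1akmt2 (1.59) and Eef1e1 (1.57). Members with GC-rich transcripts tended to be low in WT 3: across 61 members with an annotated transcript, its deviation from the other libraries had a Spearman correlation of -0.60 with GC content and 0.09 with exon length. Over 9926 tested genes the corresponding values were -0.46 and -0.09, of the same sign as among the members for GC content. WT 3 was also the library with the fewest genes at 1 RPKM (8912) and the highest endoderm marker sum (1233 RPKM), whose part in these values was not tested. In the other libraries the GC correlation among members was 0.50 in WT 1, 0.33 in WT 2, 0.47 in KI 1, -0.12 in KI 2 and 0.38 in KI 3. Each of those deviations is taken against a mean that includes WT 3, so the values are not independent of it. Genes are not independent replicates, and these correlations describe these libraries only. For Eif3d, 43.3% of the exon length also lies in exons of another gene on the opposite strand, and without known strand use these reads cannot be told apart.

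**Figure D5:**
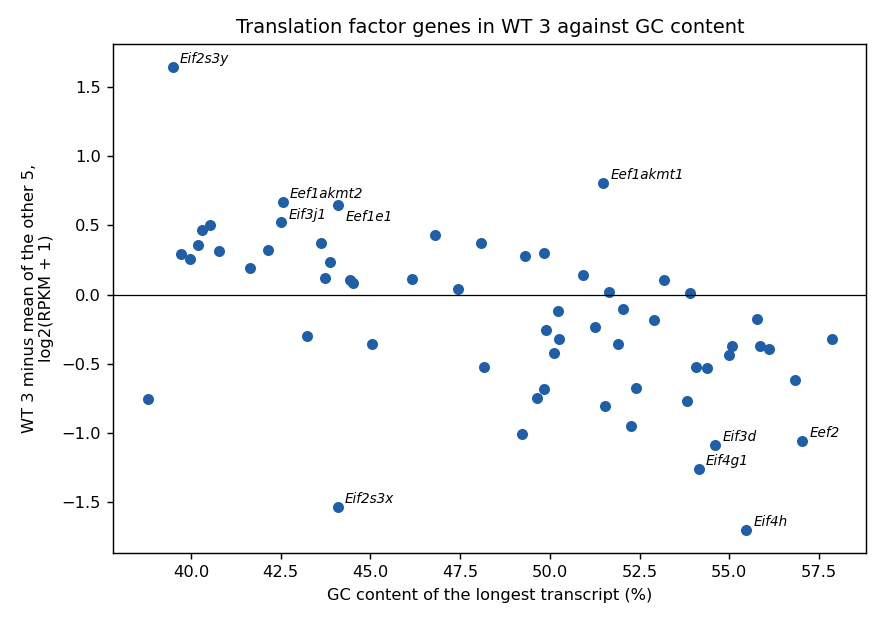
Deviation of WT 3 from the mean of the other 5 libraries on the log2(RPKM + 1) scale against the GC content of the longest annotated transcript, for 61 tested members, with the 5 lowest and 5 highest named. Most members above 50% GC lie below 0, down to Eif4h, while Eif2s3y, which is low or absent in 2 KI libraries, lies highest.

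KI 2, the library nearly without endoderm markers, held the lowest value of 8 members (12.9%) and the highest of 12 (19.4%), against 20.6% and 17.5% of all tested genes. The highest ratios to the mean of the other 5 libraries were those of Eif3f (1.55), Eif1 (1.53) and Eif1b (1.51), the lowest those of Eif2ak2 (0.664), Eif2d (0.72) and Eif3a (0.733). No tested member thus left the range from 0.664 to 1.55 times the other libraries in KI 2.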

How the data were processed

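The labels' protocols describe oligo(dT) capture of embryo RNA and libraries from the SMARTER mRNA-seq kit. The submitters' processing notes name GRCm39; the sources used here give no aligner, counter, annotation or strand use. Values deposited by the authors are RPKM, a unit read off the numbers: after multiplication by merged GENCODE M21 exon lengths (build GRCm38, used by gene name for lengths, GC content, overlap and sequences), 97.9% to 98.0% of those under 2000 reads were whole within 0.05, which gave the depths. Lengths were found for 21229 of 21877 symbols. For 20 repeated symbols the most abundant row was used.

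Genes reaching 1 RPKM in 3 or more libraries were fitted with limma 3.58.1 (R 4.3.3) on log2(RPKM + 1) with trend and robust prior, KI against WT. The same fit was tested on simulated data, with a spread between libraries taken without WT 3 and KI 2. That test does not cover the wider spread of the libraries fitted here. This scale understates changes of low genes. Over 2 kb of exon, 1 read was worth 0.0369 to 0.0512 RPKM, and the floors of 3 reads cover counting error only. Members and lists were chosen with earlier results of these data known. Values in every library were given for members with separated groups or an unadjusted p under 0.05, the 3 highest members of each role and the copies of each pair; other members and genes were added after their values were seen. Alternatives covered pseudocount, filter, scaling, limma-voom on recovered reads, a replicate block, library weights, a Y-linked covariate and left-out libraries.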

Additional observations from a re-analysis of the deposited data

How the results depend on the processing

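No translation factor gene passed the threshold in any of the 16 alternatives. The median member difference, 0.04 on the log2 scale, ran from -0.04 to 0.10 and in each of them moved by less than the SD between libraries (0.0843). Over all genes, 93 passed with library weights and 48 with WT 3 and KI 2 left out together; the weights rested mostly on KI 1 (7.75) and WT 2 (3.41), and the 4 libraries kept in the other setting differed in Y-linked expression (27.4 and 27.5 RPKM in WT, 5.24 and 0 in KI) as well as genotype. The count of 1 member at an unadjusted p under 0.05 became 0 with a pseudocount of 0.1, 2 with no expression filter, 2 with median centring, 2 with quantile normalization, 2 with the Y-linked covariate, 6 with library weights and 6 with WT 3 and KI 2 left out together, and ran from 0 to 1 when single libraries were left out. The cause was not tested. The 6 members with WT 3 and KI 2 left out were Eif2s3x, Eif2s3y, Eif4a1, Eef1a1, Eif2ak2 and Eif4e3, with adjusted p from 0.136 to 0.407, beside 11.4% of all tested genes under the same limit. That share was 0.98% with the pseudocount of 0.1, 2.13% with no filter, 2.02% with median centring and 2.11% with quantile normalization. It was 5.57% with the Y-linked covariate and 15.8% with library weights, and ran from 0.595% to 4.52% when single libraries were left out. Eif2s3x, Eif2s3y, Eif3a, Eif4a1 and Eif5a, picked from these same data, kept their direction in every alternative. Where every KI value lay on one side of the WT values, left-out libraries, weights or another pseudocount could not reverse it. Same-numbered libraries did not deviate together (correlations 0.124, -0.05 and 0.01), so the replicate block served as an alternative only. With it 0 genes passed, 1 member lay under an unadjusted p of 0.05 beside 1.38% of all tested genes, and the median member difference was 0.04. The 95% interval lay within 1.5-fold of RPKM + 1 for 34 of 62 members, so a change of that size is not bounded in the others at this number of libraries.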
